A study of Homo sapiens with 12 samples.

Results

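The cytosolic ribosomal protein genes were measured in 3 gastric cancer lines, each sorted into a CD133+ and a CD133- fraction. They were taken by symbol, as every RPL or RPS gene with a plain number, an optional A, L or X after it, the P stalk genes RPLP0 to RPLP2, and RPSA. The rule selected 84 of the 34688 rows of the array table, of which 51 name large subunit and 33 small subunit genes. KATO-III, SNU-216 and SNU-601 are established human gastric cancer lines, untreated and grown in the same medium. The sample labels name the second line SNU-216, whereas the series' design text writes SNU201 in its place, and the labels were followed. CD133, the product of PROM1, is a glycoprotein of the cell membrane. The gates took the brightest 10% of CD133+ cells and the dimmest 6% of CD133- cells of each line by fluorescence, so the cells between them were not measured. RNA of each of the 6 populations was hybridized on 2 Illumina HT-12 v3 arrays, 12 in all. The labels number the arrays of a population as replicates and do not say whether they come from separate sorts. Except in the fit over all lines, the p-values thus measure the spread between these arrays, which may be technical. The p-values of that fit also take in how the change between fractions differs between lines.

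A cytosolic ribosome joins a small subunit, which reads the mRNA, and a large subunit, which makes the peptide bond. Each protein is needed at about equal copy number, and in mammals the mRNAs share a control of translation through a run of pyrimidines at their very start, the terminal oligopyrimidine (TOP) motif, which growth signalling through mTOR acts on. Most of these genes have no active second copy. A few have paralogs with restricted expression, such as RPL3L in heart and skeletal muscle and RPL10L and RPL39L in testis. Many also have processed pseudogenes with similar sequence, and the sources used here do not give the probe behind a row, so cross-hybridization between a gene and its copies was not tested.

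RefSeq start sites were found for 64 of the 84 genes (GRCh38.p14), and they show what the members share apart from their names. An annotated transcript started with C in 49 (76.6%), against 18% of 27305 genes (4915), and with C in a run of at least 5 pyrimidines in 46 (71.9%), against 5.14%. A member with several annotated starts was counted if any of them did so. The words CTTTCC and CTTTTCC, neither of which contains the other, were sought within 50 bases on either side of the start, on both strands. CTTTCC was held by 24 members (37.5%, all genes 10.7%) and CTTTTCC by 12 (18.8%, all genes 3.28%). Windows of 10 bases before the start and 20 from it follow for members that the results turn on, with the pyrimidine run that begins at the start in capitals.
RPL36A, chrX:101391001-101391030, plus strand: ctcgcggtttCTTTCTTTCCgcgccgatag
RPL28, chr19:55385922-55385951, plus strand: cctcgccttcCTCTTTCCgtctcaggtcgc
RPS23, chr5:82278335-82278364, minus strand: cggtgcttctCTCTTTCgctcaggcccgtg
RPL14, chr3:40457329-40457358, plus strand: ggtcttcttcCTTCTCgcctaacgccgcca
RPL21, chr13:27251548-27251577, plus strand: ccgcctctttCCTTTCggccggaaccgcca
RPS7, chr2:3575250-3575279, plus strand: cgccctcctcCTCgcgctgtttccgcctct
RPS28, chr19:8321486-8321515, plus strand: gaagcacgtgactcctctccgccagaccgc
RPS27, chr1:153990752-153990781, plus strand: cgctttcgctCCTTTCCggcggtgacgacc
RPS27L, chr15:63157458-63157487, minus strand: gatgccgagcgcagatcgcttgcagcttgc
The first 6 are genes that differed between fractions or lines and begin with C and a run of 3 to 10 pyrimidines. RPS28 also differed between fractions, and its annotated start has no such run. RPS27 begins with a run of 7, whereas its paralog RPS27L does not begin with a pyrimidine.

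The deposited values were quantile-normalized, background-subtracted intensities with 1 row per gene symbol. Values under a floor of 32.7 were raised to it, log2 was taken, and limma was run on the 20147 rows that exceeded this floor on 2 or more of the arrays, with Benjamini-Hochberg adjustment over all of them. A gene is called where its adjusted p is under 0.05. Intensities are relative to the other rows of an array, and less RNA per cell or fewer cells with the mRNA cannot be told apart. PROM1 was higher in the CD133+ arrays of each line, by 1.10, 2.02 and 1.86 on the log2 scale in KATO-III, SNU-216 and SNU-601, and the epithelial genes KRT8, KRT19, EPCAM and CDH1 were above the floor on all 12 arrays. The leukocyte genes PTPRC and CD3E, the fibroblast gene DCN and the endothelial genes PECAM1 and VWF were above it on 0 arrays, COL1A2 on 1 and COL1A1 on 7.

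Ribosomal protein genes were among the brightest rows on every array. Between 14 and 21 of the 100 brightest rows of an array, and between 28 and 34 of the brightest 1%, were members. The median intensity of the tested members lay between 10504 and 11789 on the 12 arrays, and the 100th brightest row at 15214 to 15412. Of the 84 members, 82 were tested, and 81 of these were above the floor on all 12 arrays. RPL10 and RPL3L were above the floor on 0 arrays, and RPL10L was above it on 4. RPL10 is a core protein of the large subunit, so the row named RPL10, with values from -13.6 to 11.9, gives no level of its mRNA. The symbols RPL13L, RPL14L and RPS26L now stand for pseudogenes (RPL13P5, RPL14P1 and RPS26P47), and the other 81 are current protein-coding symbols.

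Most ribosomal protein genes kept nearly the same level in both fractions. The median log2 change, CD133+ minus CD133-, was 0.00 in KATO-III, 0.04 in SNU-216 and -0.04 in SNU-601, where the median of all tested rows was 0.00 in each. In KATO-III 22 members were called, 14 higher and 8 lower in CD133+ cells. They were 26.8% of those tested, beside 39.3% of all tested rows (18.7% higher, 20.6% lower). In SNU-216 15 were called (10 higher, 5 lower), or 18.3% beside 28.6% of all rows (14.6% higher, 14.0% lower). In SNU-601 8 were called (2 higher, 6 lower), or 9.76% beside 16.4% of all rows (8.59% higher, 7.78% lower). The brightest 5% of rows, which hold 58 of the members, were called in 37.3%, 28.7% and 15.1%. With each array centred on its median the calls divided into 22 higher and 3 lower in KATO-III and 4 higher and 3 lower in SNU-601, so the direction of the small changes depended on the scaling. Both arrays of CD133+ cells lay outside the range of both CD133- arrays for 49 members in KATO-III (27 higher; 63.1% of all rows were apart), 48 in SNU-216 (26 higher; 54.9% of all rows) and 46 in SNU-601 (12 higher; 49.3% of all rows).

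**Figure D1:**
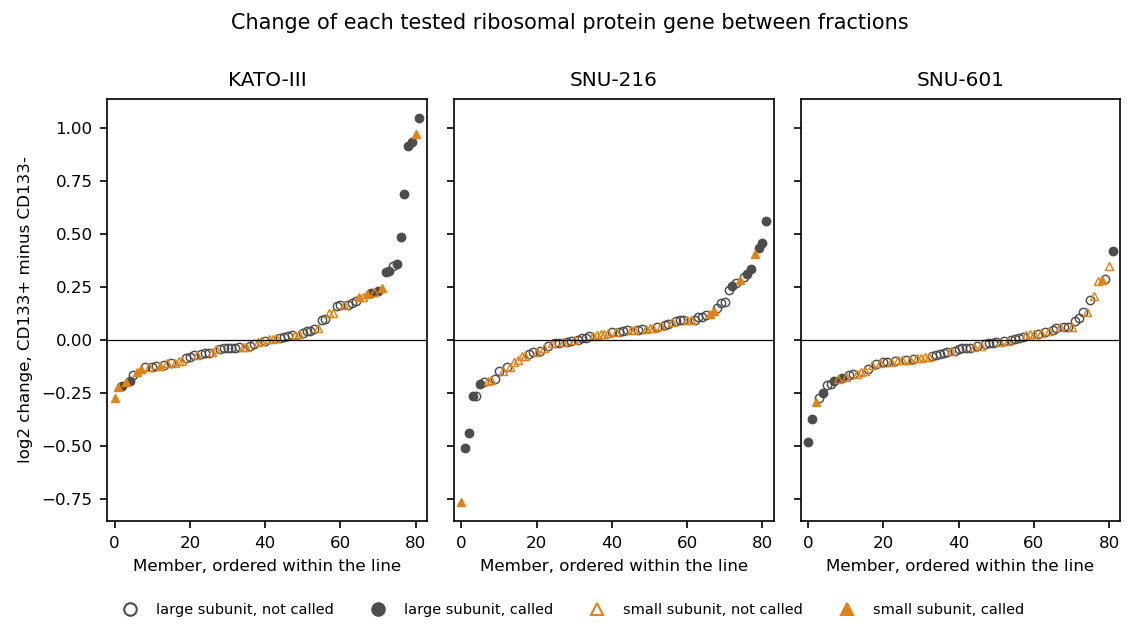
Log2 change of the 82 tested ribosomal protein genes between CD133+ and CD133- cells (y axis), ordered by size within each line (x axis), with circles for the large and triangles for the small subunit and filled symbols for an adjusted p under 0.05. Most points lie close to 0, and 5 genes in KATO-III, 3 in SNU-216 and none in SNU-601 pass 0.5 in either direction.

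Both subunits held genes of both directions in each line. In KATO-III 10 of 49 tested large subunit genes were called higher and 2 lower in CD133+ cells, against 4 and 6 of 33 small subunit genes. That is 24.5% and 30.3% called, beside 39.3% of all tested rows. Called or not, 26 large subunit genes were above 0 and 23 below, and 15 and 18 small subunit genes. In SNU-216 the counts called were 6 and 4 for the large and 4 and 1 for the small subunit (20.4% and 15.2%, all rows 28.6%). In SNU-601 they were 1 and 5 for the large and 1 and 1 for the small subunit (12.2% and 6.06%, all rows 16.4%). The difference between subunits was not tested.

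The 5 members that changed by over 0.5 in KATO-III were all higher in CD133+ cells. RPL23, which is also known to bind the ubiquitin ligase MDM2, had intensities of 5899.9 and 4951 in CD133+ cells and 2700.2 and 2530.3 in CD133- cells. That is 2.07-fold (log2 1.05, SE 0.136, adjusted p = 0.000332), and the lower CD133+ array was well above the higher CD133- array. RPS28, a small subunit protein near the path of the mRNA out of the ribosome, measured 4881 and 5158 against 2975 and 2206. Its 1.96-fold difference (log2 0.97, SE 0.132, adjusted p = 0.000428) exceeded the spread of the CD133- arrays, the wider of the pairs. RPL7, a large subunit protein, measured 1754 and 1944 against 976 and 959, which is 1.91-fold (log2 0.93, SE 0.109, adjusted p = 0.000177). RPL23A, which sits beside the opening of the peptide exit tunnel, measured 3222 and 3167 against 1693 and 1697, which is 1.88-fold (log2 0.91, SE 0.106, adjusted p = 0.000171). RPL21 followed, with 9856 and 9325 against 6239.6 and 5675 (log2 0.69, SE 0.0871, adjusted p = 0.000282). For RPL7, RPL23A and RPL21 too the arrays of the fractions did not overlap. The 8 genes that fell did so by little, with log2 changes from -0.12 for RPS3 to -0.27 for RPS16, named here after their values were seen. Without the second CD133- array of KATO-III the count of calls was 11 in place of 22.

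In SNU-216 the gene that moved most went the other way. RPS28 measured 2338 and 2447 in CD133+ cells and 4256 and 3877 in CD133- cells. It was 1.70-fold lower in CD133+ cells (log2 -0.76, SE 0.132, adjusted p = 0.00255), with no overlap between the fractions. RPL7 was again higher in CD133+ cells, with 2055 and 1964 against 1314 and 1407 (log2 0.56, SE 0.109, adjusted p = 0.00458). RPL13, a large subunit protein, measured 1448 and 1484 against 2184 and 1999.6 and was lower in CD133+ cells (log2 -0.51, SE 0.0952, adjusted p = 0.00378). RPL36A, which lies close to the site where tRNA leaves the ribosome, measured 883 and 917 against 681 and 631 and was higher (log2 0.46, SE 0.0718, adjusted p = 0.00156). These genes were on opposite sides, and in each the fractions were separate on all 4 arrays. RPL23 and RPL36A were called higher in both KATO-III and SNU-216 and were not called in SNU-601. RPL23 had 6703 and 5639 against 4863 and 4254 in SNU-216 (log2 0.43, adjusted p = 0.0422). RPL36A had 939.9 and 1005 against 759 and 759 in KATO-III (log2 0.36, adjusted p = 0.00388). Without the second CD133- array of SNU-216 the count of calls was 9 in place of 15.

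In SNU-601 the changes were smaller, and 6 of the 8 called genes fell in CD133+ cells. RPL7 measured 651 and 838 in CD133+ cells and 1073 and 990.1 in CD133- cells (log2 -0.48, SE 0.109, adjusted p = 0.0177). RPL21 measured 5003 and 5949.6 against 7139 and 6978 (log2 -0.37, SE 0.0871, adjusted p = 0.0206). Both genes were lower here and higher in the CD133+ cells of KATO-III. RPS7, a small subunit protein that also binds MDM2, measured 4067 and 4047 against 5059 and 4872 (log2 -0.29, SE 0.0480, adjusted p = 0.00435). RPL13 rose, with 1615 and 1359.9 against 1035 and 1183 (log2 0.42, SE 0.0952, adjusted p = 0.0177). These 4 genes did not overlap between the fractions, but the calls rest on few arrays. The count was 5 without the first CD133+ array of SNU-601, 2 without its first CD133- array and 4 without its second, and it was 3 with no filter on low values and 5 with no mean-variance trend. RPL7 and RPL13 missed the threshold without the first CD133+ array (adjusted p = 0.0647 and 0.10) and without the first CD133- array (0.0985 and 0.106). RPL21 missed it without the first CD133+ array (0.106) or either CD133- array (0.0934 and 0.0730).

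**Figure D2:**
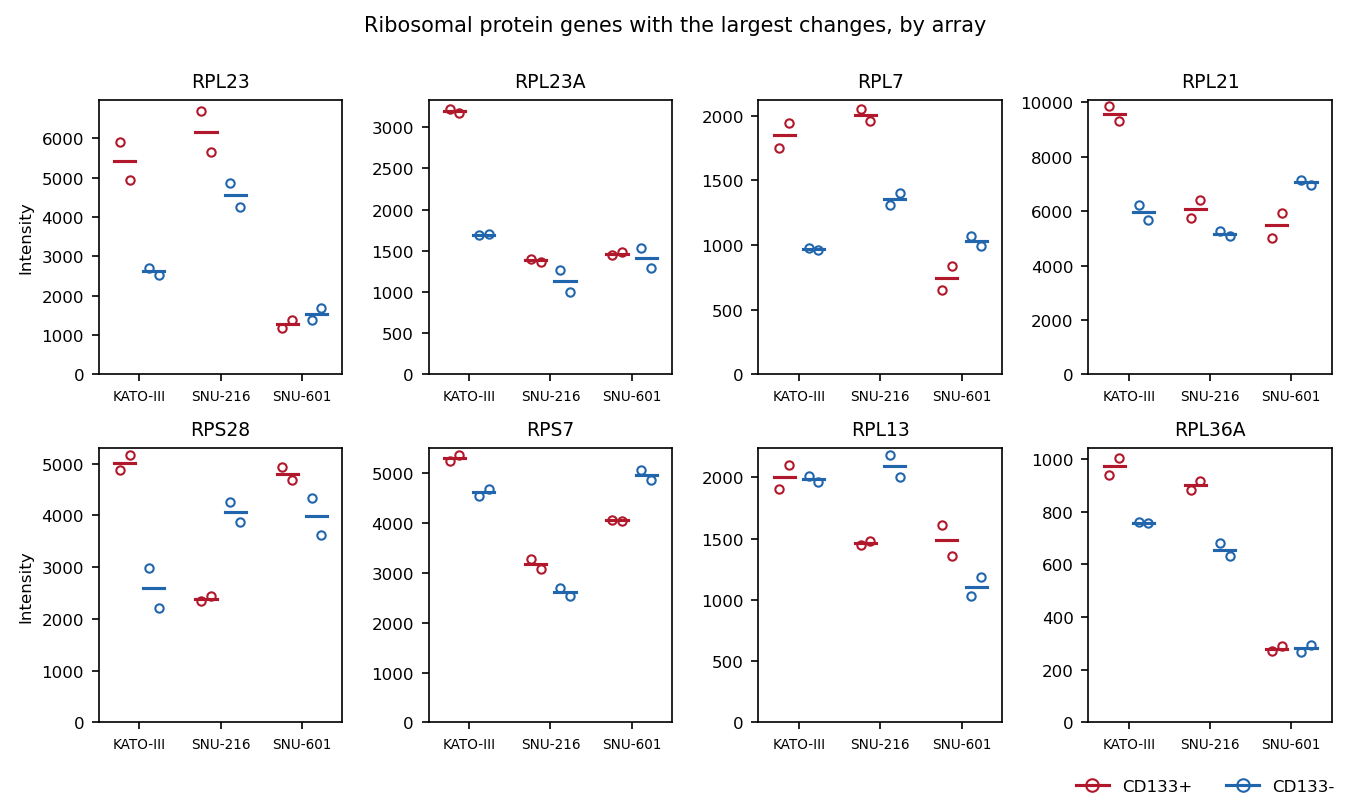
Intensity (y axis, linear from 0) of 8 ribosomal protein genes on each of the 12 arrays, by line (x axis), with CD133+ arrays in red, CD133- arrays in blue and a bar at the mean of the 2 arrays. RPL7 and RPS7 are higher in CD133+ cells of KATO-III and SNU-216 and lower in those of SNU-601, and RPS28 changes sides between KATO-III and SNU-216.

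Few members changed alike in the 3 lines. Of the 82 tested, 51 were called in no line, 19 in 1, 10 in 2 and 2 in all 3. Thus 37.8% were called in at least 1 line and 2.44% in all 3, beside 56.2% and 4.97% of all tested rows. The members called in all 3 lines were RPL7 and RPS7, each higher in CD133+ cells of KATO-III and SNU-216 and lower in those of SNU-601. RPS7 had 5246 and 5371 against 4539 and 4695 in KATO-III (log2 0.20, adjusted p = 0.00930) and 3282 and 3081 against 2695 and 2536 in SNU-216 (log2 0.28, adjusted p = 0.00233). Of the 12 genes called in at least 2 lines, RPL23 and RPL36A had their called changes in 1 direction, and 10 (83.3%) were called in opposite directions, beside 47.1% of the 4657 tested rows called in at least 2 lines. The change had the same sign in all 3 lines for 10 genes (12.2%; all tested rows 22.5%), 4 higher and 6 lower.

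The interaction of line and fraction, which tests whether the change differs between lines, was called for 25 members (30.5%), beside 44.4% of all tested rows and 44.7% of the bright rows. Its adjusted p was 0.000294 for RPL7, 0.000322 for RPS28, 0.000360 for RPS7, 0.000496 for RPL21, 0.00160 for RPL13, 0.00172 for RPL23, 0.00396 for RPL23A and 0.0110 for RPL36A. RPL15, chosen here after its values were seen, had an adjusted p of 0.00184. This large subunit gene was higher in CD133+ cells of SNU-216 (9119.6 and 9149 against 7499 and 7234, log2 0.31, adjusted p = 0.00263) and lower in those of SNU-601 (11609.7 and 12990.01 against 14083 and 13991, log2 -0.19, adjusted p = 0.0417).

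With all lines in 1 fit and line as a block, limma called 0 members between the fractions, beside 4.73% of all tested rows (2.62% higher, 2.11% lower) and 3.87% of the bright rows. This fit counted both arrays of a population as independent. An unadjusted p under 0.05 was reached by 6 members (7.32%), beside 24.5% of all tested rows. Without the first CD133- array of SNU-601, 3 were called: RPL23A (log2 0.50, adjusted p = 0.0481), RPL10A (0.22, adjusted p = 0.0444) and RPL13A (-0.18, adjusted p = 0.0364). RPL23A was at 0.42 with all arrays (SE 0.127, adjusted p = 0.0749), and its change was 0.91 in KATO-III, 0.30 in SNU-216 and 0.06 in SNU-601.

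The sizes of the changes were small beside those of other genes. The median size of the log2 change was 0.11 in KATO-III, 0.09 in SNU-216 and 0.08 in SNU-601, against 0.29, 0.23 and 0.18 for all tested rows. The 950 other rows of the brightest 5% came closer, at 0.13, 0.11 and 0.09. The brightest 5% hold 58 of the members besides these 950 rows, and the other members are dimmer. A change of over 0.5 in size was seen for 6.10% of members in KATO-III, 3.66% in SNU-216 and 0% in SNU-601, against 30.3%, 20.6% and 12.5% of all tested rows and 8.21%, 3.16% and 1.16% of those bright rows. No change of over 0.5 was found among the 48 members with a mean intensity of 10000 or more. All were among the 34 dimmer members, where RPL7 and RPS28 each passed 0.5 in both KATO-III and SNU-216. Of the 48, 10, 5 and 1 were called in the 3 lines (20.8%, 10.4% and 2.08%). Of the 34, 12, 10 and 7 were called (35.3%, 29.4% and 20.6%), beside 39.3%, 28.6% and 16.4% of all tested rows. Spearman's correlation of mean log2 level and size of change over the 82 genes, which share arrays and normalization, was -0.29, -0.46 and -0.45 in the 3 lines. Whether brightness had a part in the sizes was not tested. The SD between arrays of a population had a median of 0.062 on the log2 scale for members and 0.13 for all tested rows.

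**Figure D3:**
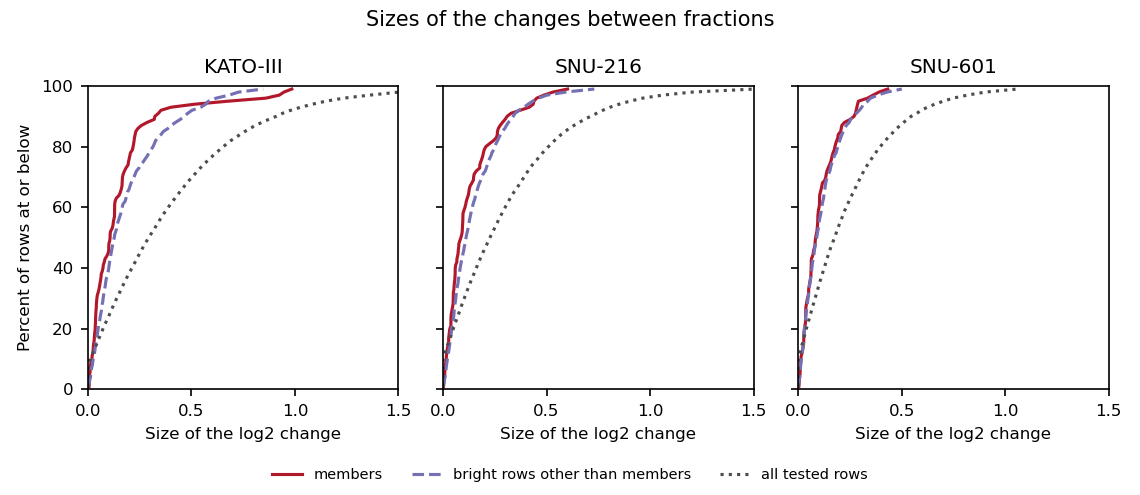
Percent of rows (y axis) whose log2 change between fractions was at or below the size on the x axis, for the 82 tested ribosomal protein genes, the 950 other rows of the brightest 5% and all 20147 tested rows. In each line the members' curve runs near that of the bright rows and to the left of that of all rows.

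The populations spread less for ribosomal protein genes than for most rows. The highest and lowest of the 6 population means were 0.24 apart on the log2 scale (1.18-fold) for the median member, 1.07 (2.11-fold) for the median tested row and 0.48 for the median of the other bright rows. This range was under 0.5 for 61 members and over 1 for 11, which in rising order were RPS7, RPL37, RPS28, RPS23, RPL7, RPL23A, RPL28, RPL36A, RPL14, RPL23 and RPL39L. It was smallest for RPS14 (0.07), RPS27 (0.08), RPS29 (0.10) and RPS27A (0.11). Between KATO-III and SNU-216, averaging the fractions of each line, 30 members were called (17 higher and 13 lower in KATO-III), or 36.6% beside 62.0% of all tested rows (30.3% higher, 31.7% lower) and 58.7% of the bright rows. Between KATO-III and SNU-601 there were 40 (16 higher, 24 lower), or 48.8% beside 58.6% of all rows (28.7% higher, 29.9% lower) and 58.4% of the bright rows. Between SNU-216 and SNU-601 there were 33 (12 higher, 21 lower), or 40.2% beside 56.5% of all rows (29.4% higher, 27.1% lower) and 58.5% of the bright rows. With arrays centred on their medians the calls of the latter comparisons divided into 19 higher and 14 lower and into 20 higher and 14 lower, and without the mean-variance trend 26 were called between KATO-III and SNU-601.

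**Figure D4:**
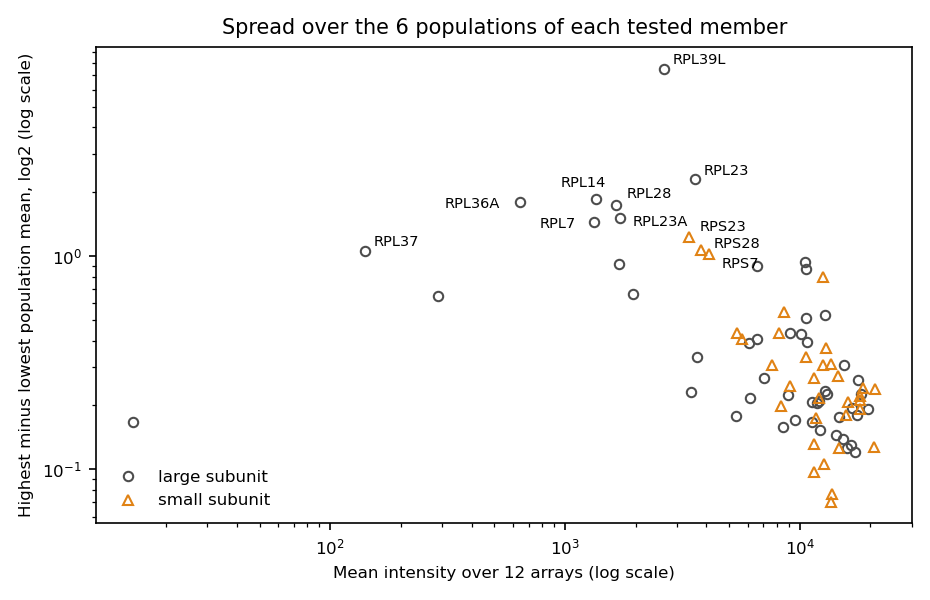
Distance between the highest and lowest of the 6 population means (log2, y axis, log scale) against the mean intensity over 12 arrays (x axis, log scale) for the 82 tested ribosomal protein genes, large subunit as circles and small as triangles. The 11 genes with a range over 1 are named, RPL39L stands apart at 7.52.

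RPL39L gave the widest difference of all members. This paralog of RPL39, whose protein lines the exit tunnel, measured 7955 and 8623 in CD133+ and 7289.7 and 7359 in CD133- cells of SNU-216. In KATO-III it measured 38.9 and 52.2 and 57.3 and 44.7, and in SNU-601 75.6 and 64.4 and 86.7 and 70.3. It was thus bright in SNU-216 alone and close to the floor of 32.7 in the other two lines. SNU-216 was 163-fold above KATO-III (log2 difference -7.35, KATO-III minus SNU-216, SE 0.125, adjusted p = 5.34e-11) and 106-fold above SNU-601 (log2 6.72, SE 0.125, adjusted p = 9.78e-11). Under the alternatives tried these differences ranged from -7.46 to -5.74 and from 5.50 to 6.80, the call and direction being kept. It did not pass the test between fractions in any line (log2 -0.17, 0.18 and -0.16). RPL39 itself lay between 14018 and 16609 on the 12 arrays and was called in no comparison.

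**Figure D5:**
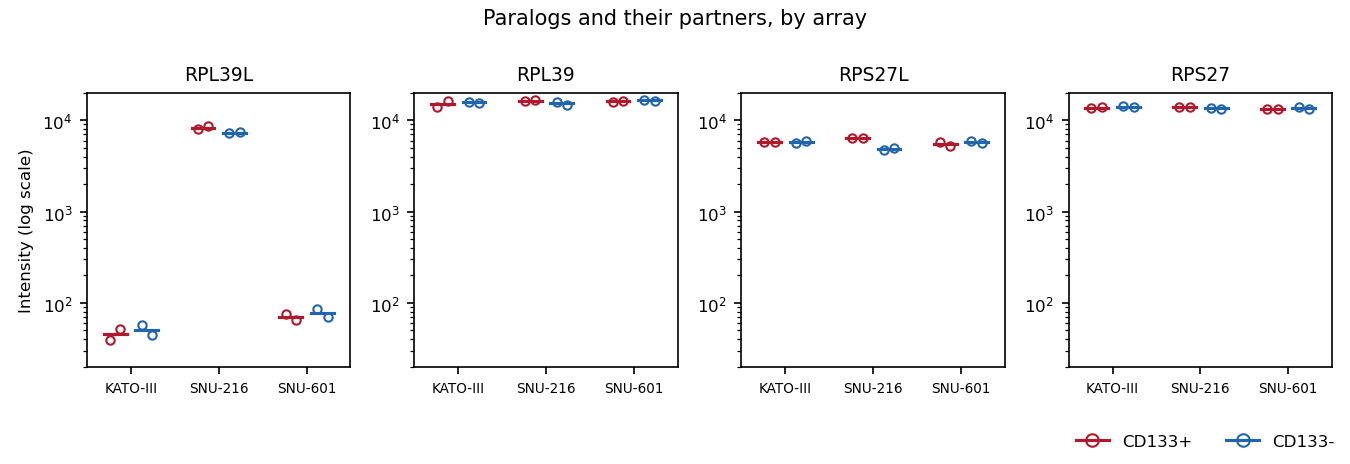
Intensity (y axis, log scale) of RPL39L, RPL39, RPS27L and RPS27 on each array, by line (x axis), with CD133+ arrays in red, CD133- arrays in blue and a bar at the mean of the 2 arrays. RPL39L is at 7290 or more in SNU-216 and at 86.7 or less in KATO-III and SNU-601, while RPL39 lies between 14018 and 16609 and RPS27 between 13290 and 14269.

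Other large subunit genes also set the lines apart. RPL14 measured 829.6 and 843 in CD133+ and 709 and 633 in CD133- cells of KATO-III. The SNU-216 arrays gave 2368 and 2427 and 2054 and 2263, and the SNU-601 arrays 1039 and 941 and 1126 and 991. SNU-216 was highest and apart from both other lines, 3.04-fold over KATO-III (KATO-III minus SNU-216, log2 -1.60, SE 0.0605, adjusted p = 1.36e-08) and 2.22-fold over SNU-601 (log2 1.15, adjusted p = 1.41e-07). The brighter row RPL14L, now listed as the pseudogene RPL14P1, did not share this order. Its population means, CD133+ first, were 7792 and 8525 in KATO-III, 9988 and 8365 in SNU-216, and 9071 and 10514 in SNU-601. RPL28 ran in the order SNU-601, KATO-III, SNU-216. Its arrays gave 2486 and 2872 and 2493 and 2390.2 in SNU-601, 1452 and 1547 and 1613 and 1663 in KATO-III, and 810.3 and 897 and 827 and 777 in SNU-216, CD133+ first. The 3 lines did not overlap, with SNU-601 at 3.09-fold over SNU-216 (SNU-216 minus SNU-601, log2 -1.63, SE 0.0559, adjusted p = 6.91e-09) and KATO-III at 1.90-fold over SNU-216 (log2 0.92, adjusted p = 4.12e-07).

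RPL36A and RPL23 were both lowest in SNU-601. RPL36A measured 272 and 288 and 269 and 295 there, and KATO-III was 3.06-fold (log2 1.61, SE 0.0508, adjusted p = 6.68e-09) and SNU-216 2.73-fold (log2 1.45, adjusted p = 7.86e-09) above it. RPL23 measured 1164 and 1371 and 1385 and 1681, with SNU-216 3.81-fold (log2 1.93, SE 0.0964, adjusted p = 1.00e-07) and KATO-III 2.71-fold (log2 1.44, adjusted p = 1.13e-06) above it. All SNU-601 arrays lay below all arrays of the other lines for both genes. RPS23, a protein of the decoding centre of the small subunit, was highest in SNU-601, with 5187 and 6109 in CD133+ and 4529 and 4314 in CD133- cells. The KATO-III arrays gave 2582 and 2243 and 2436 and 2842, and the SNU-216 arrays 2556 and 2672 and 2755 and 2411. KATO-III and SNU-216 were not distinguished (log2 -0.04, SE 0.0777, adjusted p = 0.654), while SNU-601 was 1.98-fold over KATO-III (KATO-III minus SNU-601, log2 -0.99, SE 0.0777, adjusted p = 3.44e-06).

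Beside RPL39L, 3 further paralogs fell under the naming rule. RPS27L, the paralog of RPS27, was higher in CD133+ cells of SNU-216, with 6403 and 6426 against 4759 and 4920.04 (log2 0.41, SE 0.0503, adjusted p = 0.000441). It measured 5782 and 5779 against 5650.4 and 5868 in KATO-III (log2 0.01) and 5716 and 5278 against 5998 and 5632 in SNU-601 (log2 -0.08), and neither passed. The difference between lines did (interaction adjusted p = 0.00120). RPS27 kept between 13290 and 14269 on all 12 arrays and was called in no comparison. RPL3L lay between -15.6 and 9.24 on every array, and RPL3, which helps form the peptidyl transferase centre, was called in no line between the fractions (log2 0.17, adjusted p = 0.0506 in KATO-III).

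Members of 3 small structural groups were called in no line between the fractions. In KATO-III, SNU-216 and SNU-601, 39.3%, 28.6% and 16.4% of all tested rows were called. Of all tested members, 26.8%, 18.3% and 9.76% were called, so few calls would be reached in groups of this size. The P stalk, made of RPLP0, RPLP1 and RPLP2, recruits the translation factors that use GTP. Its changes lay between -0.12 and 0.10 in KATO-III, -0.07 and 0.04 in SNU-216, and -0.04 and 0.01 in SNU-601, and none of the 3 genes was called. RPLP0 ranged from 8019 to 9586 over the 12 arrays, RPLP1 from 8108 to 9587 and RPLP2 from 14512 to 17574. RPL5 and RPL11 enter the ribosome together with 5S rRNA and bind MDM2 when free. RPL5 measured 7376 and 6919.7 in CD133+ and 5910.3 and 5337 in CD133- cells of KATO-III, apart on all 4 arrays, but did not pass (log2 0.35, SE 0.140, adjusted p = 0.0834). The CD133- arrays of SNU-601 differed most for RPL5, at 7368 and 5234. RPL11 changed by 0.04, -0.01 and -0.17 in the 3 lines, none called. RPS27A, made as a fusion with ubiquitin, changed by -0.01, 0.03 and -0.09.

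Of the 9 listed proteins around the exit tunnel, RPL23A and RPL31 (log2 0.22) rose in KATO-III, and none was called in SNU-216 or SNU-601. The interaction was called for 2 of the 9. Of all tested rows, 39.3%, 28.6% and 16.4% were called in the lines and 44.4% in the interaction. Of 11 genes mutated in Diamond-Blackfan anaemia, an inherited failure of red cell production, 2 were called in KATO-III (RPS7 higher, RPS10 lower), 2 in SNU-216 (RPS7 and RPL15 higher) and 3 in SNU-601 (RPS26 higher, RPS7 and RPL15 lower). These are 18.2%, 18.2% and 27.3% of the list, beside 39.3%, 28.6% and 16.4% of all tested rows. Their median changes were 0.01, 0.03 and -0.10.

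Gene groups that work beside the ribosome were read for context, and their shares stand beside the 39.3%, 28.6% and 16.4% of all tested rows called in KATO-III, SNU-216 and SNU-601. Of 76 mitochondrial ribosomal protein genes, which serve the separate ribosome of the mitochondrion, 37 rose and 8 fell in CD133+ cells of KATO-III (59.2%, median log2 0.22). In SNU-216 23 rose and 16 fell (51.3%, median 0.01), and in SNU-601 4 rose and 10 fell (18.4%, median -0.02). The interaction was called for 59 of the 76 (77.6%), against the 44.4% of all tested rows. Of 37 tested proteasome subunit genes 14 rose and 8 fell in KATO-III, 6 rose and 5 fell in SNU-216, and 2 rose and 1 fell in SNU-601 (59.5%, 29.7% and 8.11%). Initiation factors, 28 tested, gave 7 higher and 4 lower, 7 and 5, and 0 and 6 in the same order (39.3%, 42.9% and 21.4%). Elongation factors and other TOP mRNAs, 14 tested, had 3, 2 and 1 called (21.4%, 14.3% and 7.14%) and medians of -0.01 in each line. Elongation factor genes EEF1A1, EEF1B2, EEF1G and EEF2 were called in no line. PABPC1, the poly(A) binding protein, rose in KATO-III (log2 0.42), and HNRNPA1 fell in KATO-III (log2 -0.38) and rose in SNU-216 (log2 0.51). VIM rose in KATO-III (log2 0.43), and EIF4B rose in SNU-216 (log2 0.25) and fell in SNU-601 (log2 -0.33). NPM1 was above the floor on 0 arrays and was not tested. Of 21 cell cycle genes, 13 rose, 1 fell and 7 were not called in KATO-III (66.7% called, median 0.36). In SNU-216 4 rose, 1 fell and 16 were not called (23.8%, median 0.03), and in SNU-601 11 rose, 0 fell and 10 were not called (52.4%, median 0.31). The part of cell cycle stage in the ribosomal protein changes was not tested.

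Some ribosomal proteins that the naming rule left out were read on the same arrays. FAU, made as a fusion with a ubiquitin-like protein, and RPL36AL, a paralog of RPL36A, were called in no line between fractions. RPL26L1, a paralog of RPL26, rose in KATO-III (log2 0.49) and SNU-216 (0.27), and RPL7L1 fell in both (log2 -0.29 and -0.21), opposite in sign to RPL7. Over all lines both were called (log2 0.29, adjusted p = 0.0323, and -0.20, adjusted p = 0.0336). That fit counted both arrays of a population as independent, so these p-values may be too small. RPL22L1, a paralog of RPL22, rose in SNU-601 (log2 0.46, adjusted p = 0.0375). GNB2L1, the scaffold protein of the small subunit also called RACK1, fell in KATO-III (log2 -0.22, adjusted p = 0.0325). RSL24D1, a ribosome assembly factor, rose in KATO-III (log2 0.22) and SNU-216 (0.29), and RSL1D1, a nucleolar protein, fell in SNU-601 (log2 -0.28). Of 13 rows named for ribosomal protein pseudogenes, 10 were tested. RPL12P6 rose in KATO-III (log2 1.54), RPL23AP13 rose in KATO-III (1.08) and SNU-601 (0.73), and RPL23AP53 (1.12) and RPL23AP7 (0.44) rose in SNU-216. RPL13L, now listed as the pseudogene RPL13P5, changed by 0.49, -0.44 and 0.29 in the 3 lines, called in the first and second, where RPL13 changed by 0.01, -0.51 and 0.42.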

How the data were processed

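CD133+ and CD133- cells of 3 gastric cancer lines were profiled on 12 Illumina HT-12 v3 arrays, 2 per population. The intensity values deposited by the authors were linear, read with BeadStudio per the labels and quantile-normalized per the methods. They were already background-subtracted (32.1% at or below 0) and had 1 row per symbol; how probes were combined is not given in the sources used here. Quantile normalization gives arrays 1 distribution, so a shift of all genes cannot be seen. Detection p-values and bead counts were not used here, and the number of arrays limits precision.

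Of 34688 rows, 93 were empty. Values under 32.7 (the 1st percentile of all values without its sign) were set to that floor before log2. The 20147 rows that exceeded it on 2 or more arrays (58.2%) were fitted in limma 3.58.1 (R 4.3.3) with population means, a mean-variance trend and 6 residual degrees of freedom. The fit over all lines had line as a block and 8, and it counted both arrays of a population as independent. With population as a random block, arrays of a population correlated at 0.64. Benjamini-Hochberg adjustment ran over all tested rows. The fitting was tested on simulated data. Tables and plots used Python 3.11.15, pandas 2.3.3, numpy 2.4.6, scipy 1.17.1 and matplotlib 3.10.9.

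Members and lists were chosen with earlier results of these data known. Genes named by rule were those called alike in all lines, the 4 largest called changes per line, up to 6 called over all lines, the 3 largest called differences per pair of lines, 4 paralogs and partners, members at or below the floor on 11 or 12 arrays, and 3 structural groups. Other genes were named after their values were seen. Alternatives were other floors, an offset, other filters, scalings, variance and replicate models, and each array left out. Sequences are from RefSeq (GRCh38.p14).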

Additional observations from a re-analysis of the deposited data

Results flagged for a closer look

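The change between CD133+ and CD133- cells differed between the lines, by limma's interaction test, for 25 ribosomal protein genes, 30.5% of those tested beside 44.4% of all tested rows. Among the named genes, those called in opposite directions in different lines were RPL7 (adjusted p = 0.000294), RPS28 (0.000322), RPS7 (0.000360), RPL21 (0.000496) and RPL13 (0.00160). The others were called in 1 direction only. RPS27L (adjusted p = 0.00120) was called higher in SNU-216, RPL23A (0.00396) in KATO-III, and RPL23 (0.00172) and RPL36A (0.0110) in KATO-III and SNU-216. RPL23, RPS27L and RPL36A had changes below 0 in SNU-601 that did not pass the test (log2 -0.27, -0.08 and -0.01). Each line was represented by 2 arrays per fraction, so no array could be set against the rest of its own group.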

How the results depend on the processing

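Over the alternatives tried, 161 counts of called ribosomal protein genes stayed within 1.5 times the reported count and 9 did not. Of the named genes' values, 452 kept their direction and side of the threshold, 10 lost the call and 0 reversed. In SNU-601 the count of 8 became 3 with no filter on low values and 5 with no mean-variance trend, and without the trend the 40 calls between KATO-III and SNU-601 became 26. With arrays centred on their medians, which moved arrays by up to 0.072 on the log2 scale, the median change was 0.044 in KATO-III and -0.0070 in SNU-601. With 1 array left out, the lone array of its population being assumed to vary like the others, the counts ran from 11 to 24 in KATO-III, from 9 to 16 in SNU-216, from 2 to 9 in SNU-601, from 0 to 3 over all lines, and from 22 to 31 for the interaction. The calls lost were of RPL7, RPL13 and RPL21 in SNU-601, with no filter (adjusted p = 0.0673, 0.0651 and 0.0741) or without 1 of its arrays. The cause was not tested. With the replicate block, replicate number being a term of the fit, the counts were 22, 13 and 6 in the 3 lines and 0 over all lines, and no named call changed. Deviations of arrays with the same number correlated at -0.0116 to 0.0276 over 15 pairs of populations, so no common deviation by number was seen. Other ways in which arrays may share a sort or a chip were not tested. Low signal limits RPL39L in KATO-III and SNU-601 and also the rows RPL37 and RPL23AP13. Signal near or under the floor leaves RPL10, RPL3L and RPL10L without a usable level.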
